A study of Mus musculus with 4 samples.

Results

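The genes Meis1, Hlf, Mecom, Hoxa5, Hoxa9, Hmga2, Nkx2-3 and Tcf15 encode transcription factors and chromatin proteins of blood stem cells. They were picked out of the counts by symbol alone, and each symbol matched 1 of the 27998 genes counted, so that all 8 were followed. The choice of these 8 was made with earlier results of these data known. RNA was counted in single LSK cells, the sorted marrow cells without lineage markers that carry Sca1 and cKit and hold the stem cells and multipotent progenitors. The controls were Nup358 fl/fl mice, named wild-type in the sample labels. The knockouts were Nup358 fl/fl and also carried R26-CreERT2, a Cre recombinase that is expressed in every tissue and is switched on by tamoxifen. Both genotypes were given tamoxifen on 3 consecutive days, the mice were 9 to 12 weeks old, and marrow from 3 mice was pooled into each library. There were 2 libraries per genotype. Cre was thus not limited to blood cells, and the libraries are pools rather than single mice. The questions asked of the 8 genes were in which LSK cells their RNA was found, how it moved with priming and with the cell cycle, and whether it differed between the genotypes.

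Meis1 and Hoxa9 are homeodomain proteins that bind DNA together with PBX partners, and Hoxa5 belongs to the same HOXA cluster. Hlf is a PAR-family bZIP factor that is widely used as a marker of blood stem cells, and Mecom (also called Evi1) is a zinc-finger factor on which long-term stem cells depend. Nkx2-3 is a homeodomain factor of the NK2 class, and Tcf15 is a basic helix-loop-helix factor linked to stem cell quiescence. Hmga2 is an AT-hook protein that opens chromatin and is best known from fetal stem cells, in which the Lin28b and let-7 axis controls it. In LSK cells, priming means that RNA of a mature lineage appears in a progenitor before it commits, and the RNA of stem cell factors is known to decline along that path.

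In GRCm38, Meis1 lies on chromosome 11 from 18879817 to 19018985 and Hlf on the same chromosome from 90336536 to 90390895, both on the minus strand. Mecom (chromosome 3, 29951296 to 30548008), Hoxa5 (chromosome 6, 52201754 to 52204587), Hoxa9 (chromosome 6, 52223100 to 52231089) and Hmga2 (chromosome 10, 120361275 to 120476469) are also on the minus strand. Nkx2-3 (chromosome 19, 43612325 to 43615892) and Tcf15 (chromosome 2, 152143561 to 152149097) are on the plus strand. Hoxa5 lies inside the span of longer Hoxa3 transcripts on the same strand, and Hoxa9 shares its span with a microRNA gene. How reads in these overlaps were counted was not checked. The promoters shown here belong to 4 genes that were lower in neutrophil-primed, erythroid-primed and lymphoid-primed than in stem-like cells and, as a contrast, to Hoxa9, which had the smallest difference from neutrophil-primed cells. Each is the 250 bases before a transcript start of RefSeq (GRCm38.p6), written 5′ to 3′ on the strand of the gene. The Hoxa9 window lies inside the span of the gene given above, before the start of a shorter transcript, as does the Mecom window shown. Capitals mark GATAA (the core read by GATA factors), GGAAG (the core read by ETS factors) and TGACAG (the core read by MEIS proteins), searched on both strands; a match on the other strand is in capitals as well.
Meis1, window chr11:19018970-19019219, minus strand: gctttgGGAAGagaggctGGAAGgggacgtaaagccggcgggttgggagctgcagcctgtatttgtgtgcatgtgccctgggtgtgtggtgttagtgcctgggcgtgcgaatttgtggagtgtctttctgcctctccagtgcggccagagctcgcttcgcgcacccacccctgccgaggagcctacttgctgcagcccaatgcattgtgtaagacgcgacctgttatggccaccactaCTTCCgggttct
Hlf, window chr11:90390918-90391167, minus strand: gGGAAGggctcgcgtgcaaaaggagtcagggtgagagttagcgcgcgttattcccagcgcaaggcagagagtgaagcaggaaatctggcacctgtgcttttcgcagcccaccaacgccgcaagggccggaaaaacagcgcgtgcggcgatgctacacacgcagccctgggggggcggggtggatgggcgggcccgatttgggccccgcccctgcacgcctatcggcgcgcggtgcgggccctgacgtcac
Mecom, start of a shorter transcript, window chr3:30013205-30013454, minus strand: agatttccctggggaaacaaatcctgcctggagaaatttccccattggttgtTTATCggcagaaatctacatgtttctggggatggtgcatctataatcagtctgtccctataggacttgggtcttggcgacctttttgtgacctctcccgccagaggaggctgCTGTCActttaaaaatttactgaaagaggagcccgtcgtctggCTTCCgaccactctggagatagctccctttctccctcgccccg
Nkx2-3, window chr19:43612075-43612324, plus strand: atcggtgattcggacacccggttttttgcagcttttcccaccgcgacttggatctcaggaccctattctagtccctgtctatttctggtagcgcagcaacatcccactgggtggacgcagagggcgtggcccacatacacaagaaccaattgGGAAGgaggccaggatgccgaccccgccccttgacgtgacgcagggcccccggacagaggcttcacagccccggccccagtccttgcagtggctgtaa
Hoxa9, window chr6:52227371-52227620, minus strand: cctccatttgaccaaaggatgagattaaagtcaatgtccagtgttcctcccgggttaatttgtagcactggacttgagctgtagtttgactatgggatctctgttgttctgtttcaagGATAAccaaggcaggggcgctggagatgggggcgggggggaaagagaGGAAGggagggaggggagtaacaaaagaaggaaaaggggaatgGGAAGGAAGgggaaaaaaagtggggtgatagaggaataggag

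All 5 windows shown held GGAAG, 3 times in Meis1, 3 times in Hoxa9 with 2 of the matches overlapping, and once in each of the others. This word was present in 64.1% of 32851 mouse promoter windows of the same length, so that most mouse promoters hold it. GATAA was found once in the Mecom window and once in the Hoxa9 window, against 22.6% of all windows, and TGACAG was found only in the Mecom window, against 15.9%. The window of the longer Mecom transcript, which is not shown, held GATAA once and neither of the other words. The palindrome TTACGTAA, which HLF and its relatives read, was in 0.113% of windows and in none of the 8 windows available for 7 of the genes. The promoter of Tcf15 was not analysed here.

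The 4 libraries held 25242 barcodes, and 17622 of them had a sequence that also occurred in another library. UMIs (unique molecular identifiers) stand for 1 captured molecule each, and a barcode whose sequence was 3 or more times richer in UMIs elsewhere was taken as copied. There were 10936 such barcodes, which made up 14.8% of control replicate 1, 81.8% of control replicate 2, 65.3% of knockout replicate 1 and 18.8% of knockout replicate 2, and they were left out. The kept cells numbered 7830, 1200, 1589 and 3422 in the same order, with median depths of 6251, 13180, 17710 and 14400 UMIs and 18846887 to 59033602 UMIs in all per library. Ranbp2, which encodes Nup358, stood at 127, 101, 124 and 126 CPM (UMIs of the gene scaled to a common total of all UMIs of the cells summed). Its 3′ counts lie outside the deleted exon and check nothing. Kit was found at 73.3 to 103 CPM and Ly6a, the gene of Sca1, at 133 to 317 CPM in every library, as the LSK label requires. Elane, a neutrophil granule gene, was 1831 and 1067 CPM in the controls and 44.8 and 24.9 CPM in the knockouts.

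Cells were thinned to 3000 UMIs and sorted into gates by lists that contain none of the 8 genes. A lineage gate needed 3 UMIs of its list, and the stem-like gate needed 2 genes of a list of 8 that includes Procr, Pdzk1ip1, Fgd5, Slamf1, Ctnnal1, Sult1a1 and Ifitm1, without Cd48, Flt3 or a lineage list. Cells with neither were called unprimed. There were 994 stem-like cells (348, 171, 133 and 342 by library), 4215 unprimed, 5739 neutrophil-primed, 451 lymphoid-primed, 207 megakaryocyte-primed and 200 erythroid-primed cells. Of the stem-like cells 754 had exactly 2 of the stem genes, and 2970 of the neutrophil-primed cells had 3 to 9 UMIs of that list, so that many cells lay near a threshold. Gate sizes were not compared between the genotypes, because the summed level of the stem gate list was lower in the knockouts. In unprimed cells the sum was 1463 and 2050 CPM in the controls and 852 and 846 CPM in the knockouts. Of the 8 genes of the list 1 was called lower there and 0 were called higher, so that the sum does not speak for each gene. Doublets were not called separately, and cells that passed more than 1 lineage gate (484) were left out of all gates.

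At equal depth a stem-like cell held RNA of 2.07 of the 8 genes on average, and 8.75% of stem-like cells held none. Unprimed cells held 1.56, lymphoid-primed cells 1.13, megakaryocyte-primed cells 1.09, neutrophil-primed cells 0.955 and erythroid-primed cells 0.385. These are means over the cells of all libraries together. Lymphoid-primed cells held 1.265 and 1.374 in the controls and 0.882 and 0.897 in the knockouts. Megakaryocyte-primed cells held 1.056 and 1.0 in the controls and 1.133 and 1.155 in the knockouts, so that the order of these gates differed by genotype. In knockout replicate 1 neutrophil-primed cells (0.968) also lay above lymphoid-primed cells. The share of cells with none of the genes was 41.3% in the neutrophil-primed and 72.0% in the erythroid-primed gate. In B-cell-like cells, which should lack these genes and are 1 possible background, the mean was 0.208 and 87.5% of 192 cells held none. The 10 such cells of the controls held none and are too few to give a background for the controls. In knockout replicate 2, 1 such cell held 12 Hlf UMIs. Whether free RNA or doublets gave these UMIs was not tested. B-cell-like cells were nearly all from the knockouts (4, 6, 50 and 132), and their median depth was 10380 UMIs, against 7284 to 13060 in the stem-like, unprimed and 4 lineage gates.

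The summed level of the 8 genes was 899 and 1130 CPM in stem-like cells of the controls and 864 and 806 CPM in those of the knockouts. Unprimed cells followed at 682, 735, 634 and 597 CPM in the same order of libraries. Megakaryocyte-primed cells stood at 415 to 519.8 CPM, lymphoid-primed cells at 352 to 610.3 CPM, neutrophil-primed cells at 293 to 368 CPM and erythroid-primed cells at 131 to 155 CPM. In each library the sum fell from the stem-like to the unprimed cells and from these to each of the 4 lineage gates named here, without an overlap between the stem-like and the unprimed values over all 4 libraries.

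**Figure D1:**
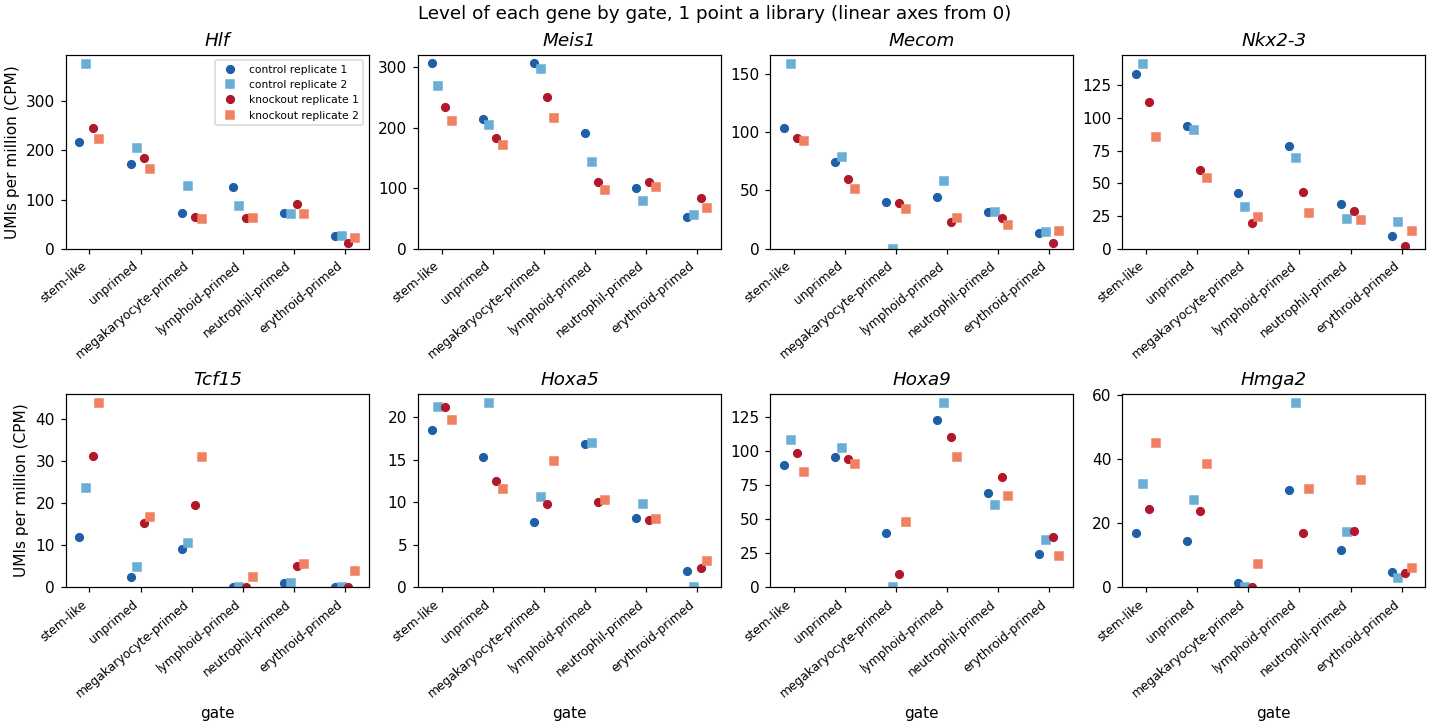
Level of each gene in CPM (linear axes from 0) by gate, with 1 point for each control (blue) and knockout (red) library. Hlf, Mecom and Nkx2-3 stood highest in stem-like cells in every library, whereas Hoxa9 stood highest in lymphoid-primed cells and Meis1 stood at 215 to 307 CPM in megakaryocyte-primed cells beside 212 to 308 CPM in stem-like cells.

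Between stem-like and unprimed cells, 4 of the 8 genes were higher in the stem-like gate and none was lower (edgeR quasi-likelihood test on UMIs summed per library, with library as a block and Benjamini-Hochberg adjustment over all genes). Of all 10291 genes tested, 3.46% were called, 2.31% higher and 1.15% lower. The median log2 fold change was 0.49 over the 8 genes and 0.01 over all genes. Tcf15 showed the widest gap. Its level was 11.96, 23.5, 31.2 and 43.7 CPM in stem-like cells against 2.495, 4.72, 15.2 and 16.8 CPM in unprimed cells, higher in 4 of 4 libraries (log2 fold change 1.48, standard error 0.19, adjusted p = 6.7e-05 by edgeR). Mecom was 103, 158, 94.9 and 92.3 CPM against 74.4, 78.7, 59.5 and 51.4 CPM (0.74, standard error 0.10, adjusted p = 0.00012 by edgeR), and all 4 stem-like values lay above all unprimed ones. Nkx2-3 was 134, 141, 113 and 85.8 CPM against 93.7, 90.8, 60.5 and 54.3 CPM (0.65, standard error 0.13, adjusted p = 0.0060), and the value of knockout replicate 2 in stem-like cells lay below both unprimed control values. Hlf was 218, 377, 247 and 223 CPM against 172, 205, 185 and 163 CPM (0.51, standard error 0.13, adjusted p = 0.032), and control replicate 2 stood well above the other stem-like libraries.

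The other members did not pass the test. Meis1, at 308, 269, 234 and 212 CPM in stem-like and 214, 205, 183 and 172 CPM in unprimed cells, was higher in 4 of 4 libraries with an adjusted p of 0.10. Hoxa5 had a log2 fold change of 0.47 (adjusted p = 0.059) and was higher in 3 of 4 libraries. Hmga2 (0.16, 95% interval −0.21 to 0.53) and Hoxa9 (−0.03, −0.22 to 0.15) lay close to 0. Hlf lost its call without control replicate 2 (adjusted p = 0.11), without knockout replicate 1 (0.080) and without knockout replicate 2 (0.13), and Nkx2-3 without knockout replicate 1 (0.060). Meis1 was called with 3 stem genes required (0.56, adjusted p = 0.018).

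Mecom, Hlf and Nkx2-3 were also followed over the number of stem genes in a cell. Among cells without a lineage gate, Mecom went from 49.5, 20.8, 48.5 and 41.8 CPM with no stem gene to 131, 206, 146 and 116 CPM with 3 or more. Hlf went from 82.1, 69.4, 134 and 109 CPM to 232, 455, 351 and 283 CPM, and Nkx2-3 from 36.5, 31.2, 35.7 and 42.3 CPM to 142, 188, 174 and 95.3 CPM. In each of these genes the 4 libraries of the upper class lay above the 4 of the lower class. Tcf15 overlapped, with 3.91, 0, 15.6 and 22.4 CPM against 8.61, 32.3, 36.4 and 62.9 CPM. In control replicate 1 and both knockouts Tcf15 was lower with 1 stem gene (2.10, 14.9 and 14.2 CPM) than with none. Hoxa9 showed no separation either, with 84.7, 41.6, 72.1 and 73.3 CPM against 81.8, 129, 129 and 86.5 CPM. The classes were not tested, and the lowest held 23 cells in control replicate 2.

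All 8 genes were higher in stem-like than in neutrophil-primed cells, where 44.3% of all genes were called, 23.9% higher and 20.4% lower. The log2 fold changes were 3.003 for Tcf15, 2.00 for Nkx2-3, 1.92 for Mecom, 1.66 for Hlf, 1.25 for Meis1, 1.18 for Hoxa5, 0.47 for Hmga2 and 0.34 for Hoxa9, with a median of 1.46 against 0.03 over all genes. Mecom fell from the levels given above to 31.3, 31.5, 25.9 and 20.3 CPM and Nkx2-3 to 34.4, 22.8, 28.4 and 22.1 CPM. Meis1 stood at 101, 79.0, 111 and 102 CPM in neutrophil-primed cells, so that neither genotype overlapped its stem-like values. Hoxa9 stood at 68.9, 60.2, 81.3 and 67.2 CPM against 89.7, 108, 98.6 and 84.9 CPM in stem-like cells. The 2 small differences were not firm. Hoxa9 lost its call without control replicate 2 (log2 fold change 0.20, adjusted p = 0.21), and Hmga2 without control replicate 1 (0.084), control replicate 2 (0.066) or knockout replicate 1 (0.079).

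The fall was gradual along the neutrophil list, though not in every library at its start. From none to 1 to 2 UMIs of the list, the summed level of the 8 genes rose from 699.5 to 732 CPM in control replicate 1. It went down in control replicate 2 (885 to 776 CPM), knockout replicate 1 (681 to 648 CPM) and knockout replicate 2 (670.6 to 568.5 CPM). Cells were divided by their UMIs of Elane, Prtn3, Ctsg, Ms4a3, Hp, Anxa3, Fcnb and Cebpe per 3000. The classes with under 3 UMIs hold stem-like and unprimed cells only, and those above hold neutrophil-primed cells only. Cells of the other lineage gates, and cells that passed more than 1 lineage gate, are in no class. Meis1 was 249, 229, 195 and 194 CPM in cells with none of these UMIs, 178, 145, 128 and 114 CPM with 3 to 9, and 88.6, 55.8, 65.1 and 56.7 CPM with 10 to 29. Hlf went from 169, 274, 191 and 183 CPM over 139, 150.0, 109 and 82.2 CPM to 53.2, 29.3, 39.7 and 30.4 CPM in the same classes. Mecom ended at 27.8, 18.5, 10.0 and 10.9 CPM and Nkx2-3 at 25.4, 12.1, 11.8 and 9.07 CPM in the class with 10 to 29 UMIs, and the 4 libraries of this class lay below all libraries of the class with none. Tcf15 was 1.01, 0, 0.716 and 0.907 CPM there, so that almost none of its RNA was left, while Hoxa9 kept 70.1, 59.8, 68.7 and 64.4 CPM of 86.4, 101, 92.2 and 87.4 CPM. In Hmga2, control replicate 1 was no lower with 10 to 29 UMIs (12.4 CPM) than with none (11.3 CPM), whereas control replicate 2, knockout replicate 1 and knockout replicate 2 were lower. The highest class, with 30 or more UMIs, held 8 cells in each knockout library, and its knockout values rest on those.

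**Figure D2:**
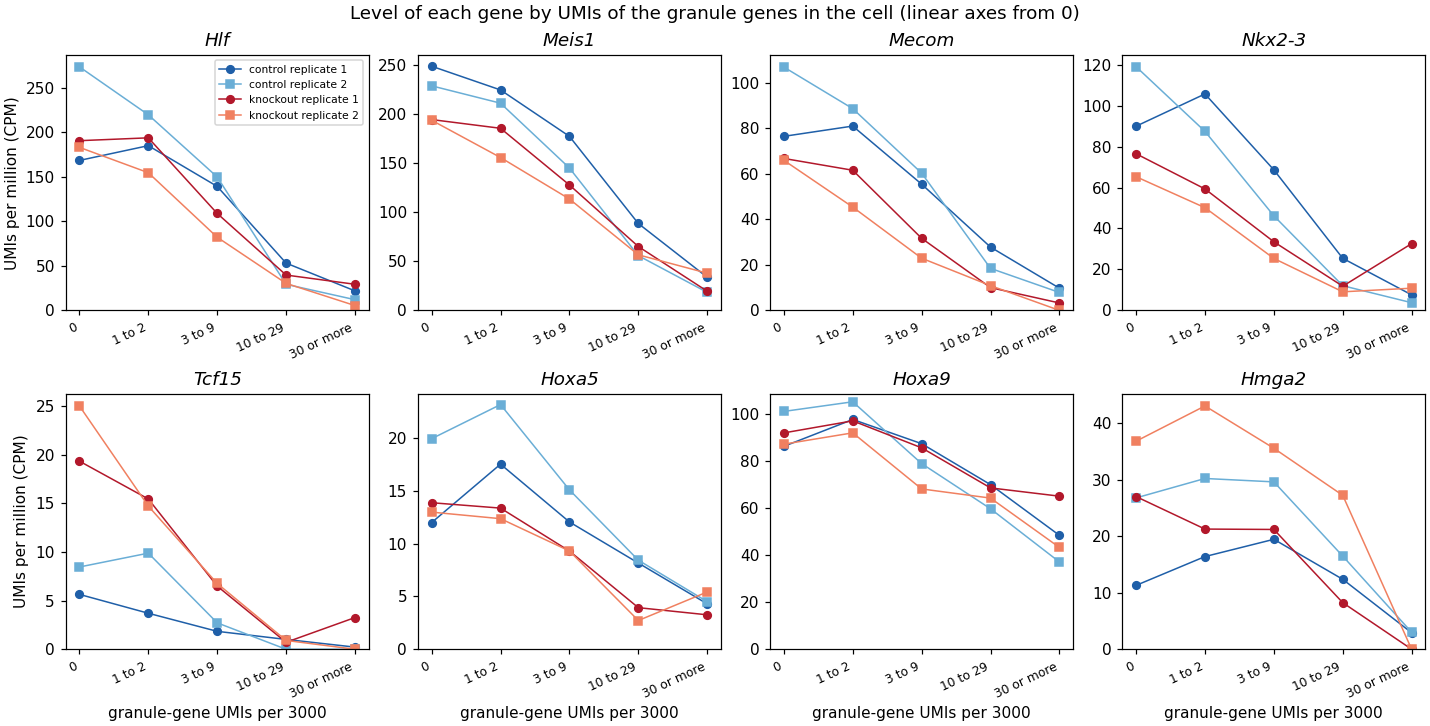
Level of each gene in CPM (linear axes from 0) against the number of neutrophil-list UMIs in a cell thinned to 3000 UMIs, with 1 line per library. Meis1, Hlf, Mecom, Nkx2-3 and Tcf15 fell steeply from 1 to 2 up to 10 to 29 UMIs, whereas Hoxa9 and Hmga2 fell less. Only stem-like, unprimed and neutrophil-primed cells are included. The last knockout points rest on 8 cells each.

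Of the 4 lineage gates, erythroid-primed cells held the least RNA of these genes. Their summed level was 131, 155, 146 and 154 CPM, beside 0, 0, 130 and 142 CPM in B-cell-like cells. These 2 gates were not tested against each other. All 8 were higher in stem-like cells (41.9% of all genes called, 21.5% higher and 20.4% lower), with log2 fold changes from 1.65 for Hoxa9 and 1.88 for Meis1 to 3.40 for Hlf and 4.09 for Tcf15 and a median of 2.98 against 0.03 over all genes. Hlf was 24.6, 26.3, 11.6 and 22.5 CPM and Meis1 52.1, 55.5, 83.6 and 66.8 CPM in erythroid-primed cells. Tcf15 had 5 UMIs there, all in knockout replicate 2, so that its fitted fold change depends on the prior count. The gate held 106, 22, 21 and 51 cells. All 8 calls held when any 1 library was left out.

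Lymphoid-primed cells showed a different order. Tcf15 was not detected in 3 libraries and had 6 UMIs in knockout replicate 2, and at equal depth 0 of 147, 0 of 107, 0 of 51 and 0 of 146 cells held it, which allows a share of up to 2.48%, 3.39%, 6.98% and 2.495% (upper limits of exact binomial intervals, which cover counting error only and bound cells with a UMI, not cells that express the gene). At this depth 4.31% to 15.5% of stem-like cells had a Tcf15 UMI. Hlf (log2 fold change 1.62), Mecom (1.51), Nkx2-3 (1.12), Meis1 (0.88) and Hoxa5 (0.59) were also higher in stem-like cells. With 18.6% of all genes called, 10.1% higher and 8.53% lower, 6 members were higher and 1 was lower. The lower member was Hoxa9, at 123, 135, 110.4 and 95.5 CPM in lymphoid-primed cells against 89.7, 108, 98.6 and 84.9 CPM in stem-like cells (log2 fold change −0.35, standard error 0.10, adjusted p = 0.020 by edgeR), lower in stem-like cells in 4 of 4 libraries. Without control replicate 1 (adjusted p = 0.12), control replicate 2 (0.091) or knockout replicate 2 (0.056) this call was lost, and it was lost when each cell was weighted alike by summing the thinned UMIs (log2 fold change −0.08, adjusted p = 0.89), an alternative chosen after seeing the data. Hoxa5 lost its call without control replicate 2 (0.052), knockout replicate 1 (0.19) or knockout replicate 2 (0.27). Hmga2 did not pass the test, with 30.5, 57.6, 17.1 and 30.8 CPM in lymphoid-primed and 16.9, 32.4, 24.4 and 45.0 CPM in stem-like cells: the controls were higher and the knockouts lower in the lymphoid-primed gate.

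Megakaryocyte-primed cells were compared in 3 libraries, since control replicate 2 held only 8 of them, a choice made after seeing the data. In this gate Hmga2 was nearly gone (1.29, 0 and 7.46 CPM, against 16.9, 24.4 and 45.0 CPM in stem-like cells; log2 fold change 2.93, adjusted p = 0.00011 by edgeR). Nkx2-3 (1.83), Hlf (1.76), Mecom (1.37) and Hoxa9 (1.18) were also higher in stem-like cells, so that 5 members were higher where 9.01% of all genes were called, 4.77% higher and 4.24% lower. Meis1 was not called, at 307, 252 and 215 CPM against 308, 234 and 212 CPM in stem-like cells, and its difference had a 95% interval of −0.37 to 0.22 on the log2 scale. Tcf15 was not called either, at 9.03, 19.6 and 30.9 CPM against 11.96, 31.2 and 43.7 CPM (0.43, −0.16 to 1.03), although the gate's Tcf15 value rests on 7, 6 and 29 UMIs. Hoxa5 had an adjusted p of 0.099. The gate held 126, 15 and 58 cells in these libraries.

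Relatives and partners of the 8 genes gave the context. Between stem-like and unprimed cells, 2 of 11 tested HOX and TALE genes were higher, among them Hoxb2 (log2 fold change 0.97). Of 9 tested family relatives, Prdm16, the closest relative of Mecom, was higher (0.77). Of 17 genes of the stem cell network, Mllt3 (0.99), Mycn (0.88) and Tal1 (0.52) were higher, and all 17 had positive log2 fold changes with a median of 0.19. Against neutrophil-primed cells, 8 of 11 HOX and TALE genes were higher, among them Hoxb2 (1.71) and Pbx3 (1.30), and 15 of 17 network genes were higher, led by Mycn (2.83), Mllt3 (1.87) and Gfi1b (1.69). Among the relatives Prdm16 (1.55), Tef (0.52), a PAR bZIP factor like Hlf, and Tcf12 (0.37), an E protein, were higher, and Nfil3 (−0.96), which reads the same DNA word as Hlf, and Hmga1 (−0.62), the sister gene of Hmga2, were lower. Against erythroid-primed cells 10 network genes were higher, Mycn (2.20), Erg (1.57) and Etv6 (1.43) first, and 3 were lower, which were Gfi1b (−1.21), Zfpm1 (−0.92) and Tal1 (−0.61). In the same comparison 6 HOX and TALE genes were higher, led by Hoxa10 (2.71), Hoxa3 (2.56) and Hoxb2 (2.21), and Pbx4 was lower (−0.61). Of the relatives Nfil3 (2.59), Prdm16 (1.79) and Tcf4 (0.60) were higher there and Tcf3 (−0.65) was lower.

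Against lymphoid-primed cells Hoxa7, a neighbour of Hoxa9 in the cluster, was lower in stem-like cells as Hoxa9 was (−0.34), while Hoxb2 (2.64) and Pbx3 (1.39) were higher. Of the relatives Tcf4 (−1.07) and Hmga1 (−0.67) were lower and Prdm16 (1.24) was higher. Gata2 (2.66), Zfpm1 (2.30) and Tal1 (2.08) led the 10 network genes that were higher. Against megakaryocyte-primed cells 1 of 12 HOX and TALE genes was higher in stem-like cells, Hoxa7 (1.02), and 1 was lower. Of 10 relatives Igf2bp2 was lower (−2.26). Of 17 network genes 5 were lower, led by Fli1 (−1.55), Zfpm1 (−1.29) and Gfi1b (−1.17), and Ikzf2 (1.59), Lyl1 (0.88) and Mllt3 (0.71) were higher. Alternatives were not run for these lists.

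The genes whose level followed the sum of the 8 most closely were sought over 20 points, 5 gates in each of the 4 libraries, after centring within the library. They were Gcnt2 (Pearson r = 0.985), Crispld1 (0.981), Cand2 (0.980), Slc16a12 (0.977) and Ctla2b (0.977), of 10291 genes. Meis1 (0.973), Hlf (0.971), Mecom (0.965) and Nkx2-3 (0.941) came close to the sum of which they are a part, and Hoxa9 (0.868), Hoxa5 (0.864), Hmga2 (0.854) and Tcf15 (0.750) followed it less. Points of 1 library share its depth and its mice, so that these values are a description.

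Cycling state was read from lists of S and G2/M genes in cells without a lineage gate. There were 422 cells low in both lists (142, 192, 37 and 51 by library), 1192 in S and 2913 in G2/M. From low to G2/M, 6 of the 8 genes fell and none rose, where 32.9% of all genes were called, 17.2% higher and 15.7% lower. The median log2 fold change was −0.84 over the 8 and −0.05 over all genes. Nkx2-3 fell from 167, 167, 193 and 96.4 CPM to 87.6, 64.5, 58.2 and 55.7 CPM (log2 fold change −1.19, standard error 0.13, adjusted p = 8.0e-07 by edgeR), and the groups did not overlap. Hlf fell from 275, 366, 325 and 372 CPM to 165, 194, 175 and 163 CPM (−0.92, standard error 0.10, adjusted p = 1.1e-06), and Mecom from 119, 145, 99.6 and 111 CPM to 70.7, 75.7, 58.6 and 52.7 CPM (−0.91, standard error 0.12, adjusted p = 1.1e-05). Both were lower in G2/M in 4 of 4 libraries without an overlap.

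Tcf15 was 11.0, 19.5, 16.6 and 36.9 CPM in low and 2.15, 4.16, 16.6 and 17.8 CPM in G2/M cells (−1.29, standard error 0.31, adjusted p = 0.0037 by edgeR). The low values rest on 6, 34, 5 and 13 UMIs. Knockout replicate 1, with 5 of these UMIs, stood at the same level in both states. Hoxa5 fell by 0.78 and Meis1 fell by 0.47 on the log2 scale, and both differences were lost when each cell was weighted alike (adjusted p = 0.0998 and 0.084). Without control replicate 2 the calls of Tcf15 (−0.80, adjusted p = 0.15) and Hoxa5 (−0.66, adjusted p = 0.11) were lost. Hoxa9 (−0.06, 95% interval −0.36 to 0.23) and Hmga2 (−0.02, −0.54 to 0.50) did not pass the test, and the Hmga2 value turned to 0.57 without control replicate 2.

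In S cells 5 members were already lower than in low cells (25.3% of all genes called, 14.1% higher and 11.2% lower), namely Nkx2-3 (−1.02), Hlf (−0.81), Hoxa5 (−0.70), Mecom (−0.69) and Meis1 (−0.32). Tcf15 was not called (−0.59, adjusted p = 0.17). Meis1 was lost without control replicate 2 (−0.24, adjusted p = 0.12) or knockout replicate 2 (−0.25, adjusted p = 0.075), and Hoxa5 without control replicate 2 (adjusted p = 0.20), knockout replicate 1 (0.064) or knockout replicate 2 (0.086). Stem-like cells were a larger share of low cells (29.7% to 41.2% over libraries) than of G2/M cells (11.5% to 17.8%), so that state and gate were partly mixed. Among stem-like cells alone, Nkx2-3 went from 220, 183, 235 and 127 CPM in low to 112, 57.0, 83.4 and 82.7 CPM in G2/M cells, and among unprimed cells alone from 145, 158, 173 and 77.7 CPM to 82.7, 65.5, 55.2 and 51.6 CPM, lower in 4 of 4 libraries in both. Hlf behaved alike, with 314, 522, 503 and 568 CPM against 196, 178, 199 and 202 CPM in stem-like cells. In stem-like cells Tcf15 rose from 10.7 (1 UMI) to 32.4 CPM in knockout replicate 1 and fell in the other libraries. Hoxa5 rose there from 12.6 (2 UMIs) to 19.2 CPM in control replicate 1 and fell in the other libraries. In knockout replicate 1, 40.5% of the 37 low cells held none of the 8 genes, against 7.29% to 19.6% in the other libraries. The B-cell gene Cd79a was called higher in low cells of the knockouts (adjusted p = 0.00014 by edgeR), and Cd79b was not called (adjusted p = 0.58 by edgeR). Whether B-lineage cells made up part of this share was not tested.

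**Figure D3:**
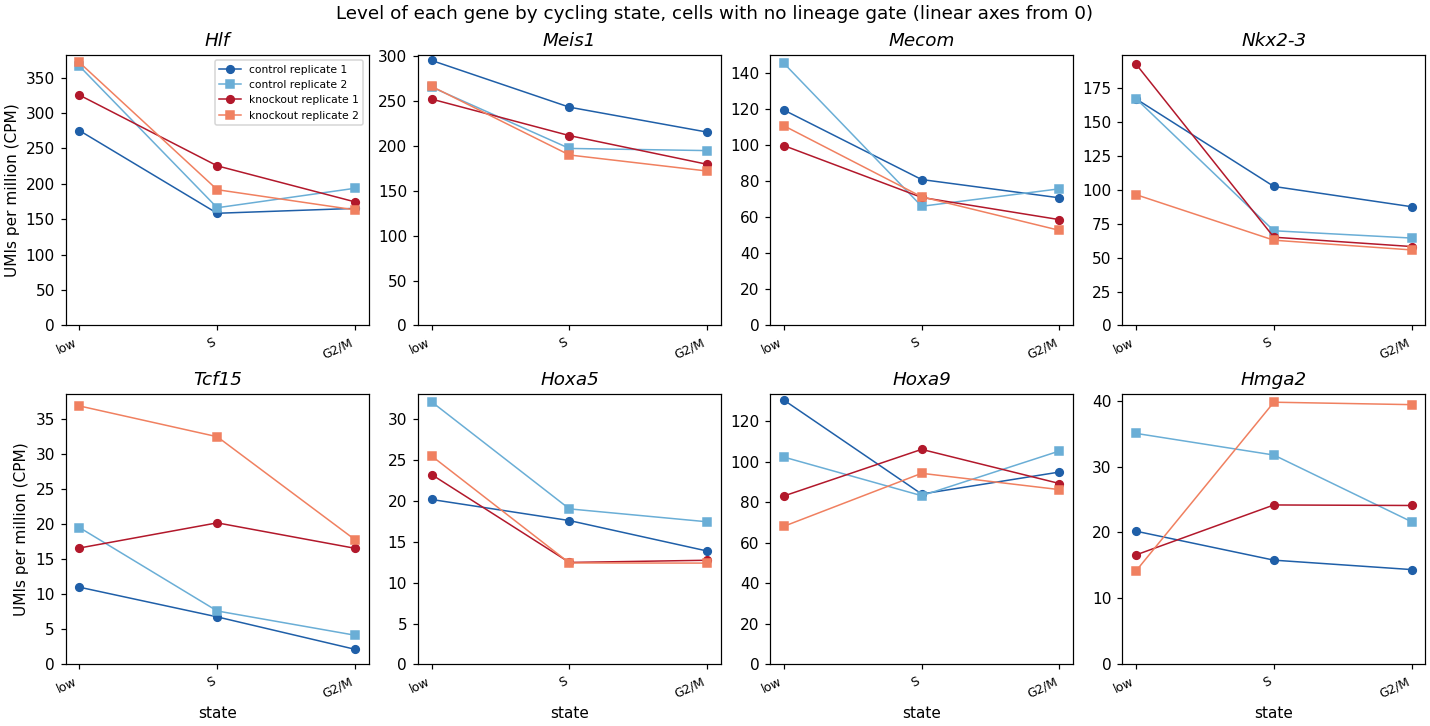
Level of each gene in CPM (linear axes from 0) in cells without a lineage gate that were low in cycle genes, in S or in G2/M, with 1 line per library. Hlf, Mecom and Nkx2-3 were lower in G2/M than in low cells in all 4 libraries, whereas Hoxa9 and Hmga2 had no common direction.

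Among related genes, the network factors Mllt3 (log2 fold change −1.35), Mycn (−0.98) and Ikzf2 (−0.60) led the 7 of 17 that were lower in G2/M than in low cells. The HOX genes Hoxb5 (−1.94), Hoxb3 (−1.41) and Hoxb4 (−0.83) were the 3 of 12 that were lower, and Tef (−1.33) was lower and Tcf3 (0.55) higher among the relatives. In S cells the leading falls were Hoxb5 (−1.74), Hoxb3 (−1.21), Hoxa3 (−1.12), Mllt3 (−1.17), Ikzf2 (−0.62), Kmt2a (−0.45) and Tcf4 (−0.77), and Tcf3 was again higher (0.57).

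Between the genotypes, Tcf15 was the member that differed. Over all LSK cells it had 121 UMIs (2.05 CPM) and 80 UMIs (4.245 CPM) in the controls and 374 UMIs (11.4 CPM) and 817 UMIs (15.2 CPM) in the knockouts. Both knockouts lay above both controls, at 4.23 times their mean (log2 fold change 2.12, standard error 0.36, adjusted p = 0.032 by edgeR, n = 2 libraries per genotype). It was 1 member of 8 called, where 3.44% of 13779 genes were called, 1.37% higher and 2.07% lower. In sums over all cells, a change in the number of cells of a type and a change in the RNA per cell cannot be told apart. With the copied barcodes kept the log2 fold change was 1.70 (adjusted p = 0.082), and with each cell weighted alike it was 1.76 (adjusted p = 0.18), an alternative chosen after seeing the data.

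Within gates the direction was the same. The stem gate list was lower in sum in the knockouts, so that a gate may not hold the same mix of cells in both genotypes. Among cells without a lineage gate and without a stem gene, Tcf15 was 3.91 and 0 CPM in the controls (121 and 23 cells). It was 15.6 and 22.4 CPM in the knockouts (140 and 325 cells). The part of the mix of cells in the differences within gates was not tested. In unprimed cells Tcf15 was 2.495 and 4.72 CPM in the controls and 15.2 and 16.8 CPM in the knockouts, without an overlap (log2 fold change 2.22, standard error 0.29, adjusted p = 0.016 by edgeR; 2.22% of all genes called, 0.545% higher and 1.68% lower). With any 1 library left out, which leaves 1 library in a genotype, the log2 fold change lay from 1.75 to 2.75. Weighted alike per cell, the change was 1.94 and missed the threshold (adjusted p = 0.070). The share of unprimed cells with a Tcf15 UMI at 3000 UMIs was 0.917% (12 of 1308; exact 95% interval 0.475% to 1.60%) and 2.34% (10 of 428; 1.13% to 4.255%) in the controls and 3.96% (28 of 708; 2.64% to 5.67%) and 5.08% (90 of 1771; 4.11% to 6.21%) in the knockouts. The interval of control replicate 2 overlapped those of both knockouts. In B-cell-like cells of the knockouts the share was 0 of 50 and 1 of 132, with 3.76 and 6.30 CPM from 2 and 12 UMIs. Lymphoid-primed knockout cells stood at 0 and 2.57 CPM. These are low levels to set beside the unprimed values, and which of them is the background was not tested.

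In stem-like cells the Tcf15 levels of 11.96 and 23.5 CPM in the controls and 31.2 and 43.7 CPM in the knockouts did not overlap, but the difference did not pass the test (log2 fold change 1.08, 95% interval 0.32 to 1.83, adjusted p = 0.15 by edgeR). None of the 8 genes was called in this gate by edgeR or by DESeq2, and 0.738% of all genes were called, 0.0809% higher and 0.657% lower. Of the 8 genes 3 had an unadjusted p under 0.05, as had 1798 of the 9893 genes tested by edgeR. Without control replicate 2 the Tcf15 log2 fold change was 1.73, and without knockout replicate 2 it was 0.80. With the replicate number as a block the adjusted p of Tcf15 was 0.029 by edgeR. The shares of cells with a UMI were 4.31% (2.43% to 7.01%) and 7.02% (3.68% to 11.9%) in the controls and 6.77% (3.14% to 12.5%) and 15.5% (11.8% to 19.8%) in the knockouts, and knockout replicate 1 lay between the controls. The Tcf15 change in stem-like cells minus that in unprimed cells was a log2 difference of −1.04, with a standard error of 0.30 and an adjusted p of 0.49 by edgeR over 11483 genes. No member was called in that test by edgeR or by DESeq2, and 0.113% of all genes were called, 0.061% higher and 0.0523% lower. Of the members 2 had an unadjusted p under 0.05, as had 765 of the 11483 genes tested by edgeR.

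In neutrophil-primed cells Tcf15 was 1.03 and 1.06 CPM in the controls and 5.07 and 5.57 CPM in the knockouts (log2 fold change 2.35, standard error 0.29, adjusted p = 0.0079 by edgeR; 4.28% of all genes called, 1.38% higher and 2.9% lower). The knockout levels lay between those of the B-cell-like knockout cells (3.76 and 6.30 CPM, from 2 and 12 UMIs). They lay above those of the lymphoid-primed (0 and 2.57 CPM) and erythroid-primed knockout cells (0 and 3.88 CPM). Which of these gates gives the background of the neutrophil-primed values was not tested. These values rest on 42, 9, 61 and 66 UMIs. With any 1 library left out the log2 fold change lay from 2.23 to 2.42. With each cell weighted alike Tcf15 was too sparse in this gate to be tested. The share of cells with a UMI at equal depth overlapped, at 0.484% and 0.733% in the controls and 0.909% and 0.543% in the knockouts. In sums of all UMIs, cells with 3 to 9 UMIs of the neutrophil list had Tcf15 at 1.84 and 2.72 CPM against 6.50 and 6.77 CPM. At equal depth the shares of these cells with a UMI overlapped, at 0.758% and 1.395% in the controls and 0.915% and 0.670% in the knockouts. With 10 to 29 UMIs the summed levels overlapped. The neutrophil list itself was lower in the knockout cells of this gate (9645 and 9388 CPM against 2521 and 2209 CPM summed, 7 of 8 genes lower). Its part in the Tcf15 difference was not tested.

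By cycling state, comparisons that were added after seeing the data, Tcf15 was 6.77 and 7.62 CPM in S cells of the controls and 20.2 and 32.5 CPM in S cells of the knockouts (log2 fold change 1.87, standard error 0.33, adjusted p = 0.014 by edgeR; 2.58% of all genes called, 0.678% higher and 1.9% lower). The share of S cells with a UMI was 2.12% (0.973% to 3.98%) and 1.89% (0.229% to 6.65%) against 6.604% (3.66% to 10.8%) and 12.5% (9.56% to 15.9%). In G2/M cells Tcf15 was 2.15 and 4.16 CPM against 16.6 and 17.8 CPM (2.67, standard error 0.29, adjusted p = 0.010; 2.31% of all genes called, 0.748% higher and 1.56% lower). Both calls held with each cell weighted alike (2.34, adjusted p = 0.0046 in S and 1.84, adjusted p = 0.026 in G2/M by edgeR). In G2/M cells the share with a UMI overlapped, at 0.955% and 3.68% in the controls against 3.29% and 4.96% in the knockouts. The thinned UMIs there numbered 8 and 5 in the controls (3.18 and 12.25 CPM) and 18 and 78 in the knockouts (12.32 and 17.91 CPM). With any 1 library left out the log2 fold change lay from 1.46 to 2.15 in S and from 2.05 to 3.07 in G2/M cells. In S cells 6 of 17 genes of the G2/M list were also higher in the knockouts, at 361 and 309 CPM against 612 and 593 CPM summed. In the same cells the B-cell gene Cd79a (adjusted p = 0.0071 by edgeR) and the stem gate gene Procr (log2 fold change 1.26) were higher, and the gate genes Ifitm1 (−1.07), Flt3 (−0.86) and Elane (−2.52) were lower. The summed B-cell list, of which 2 of 8 genes could be tested, overlapped in S cells, at 51.0 and 27.9 CPM against 48.1 and 48.5 CPM. Cd79a was also called higher in unprimed cells (adjusted p = 0.039 by edgeR). The summed B-cell list overlapped there as well, at 46.0 and 34.5 CPM in the controls against 38.4 and 39.3 CPM in the knockouts. The part of these genes in the Tcf15 difference was not tested. In low cells Tcf15 was too sparse to be tested.

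**Figure D4:**
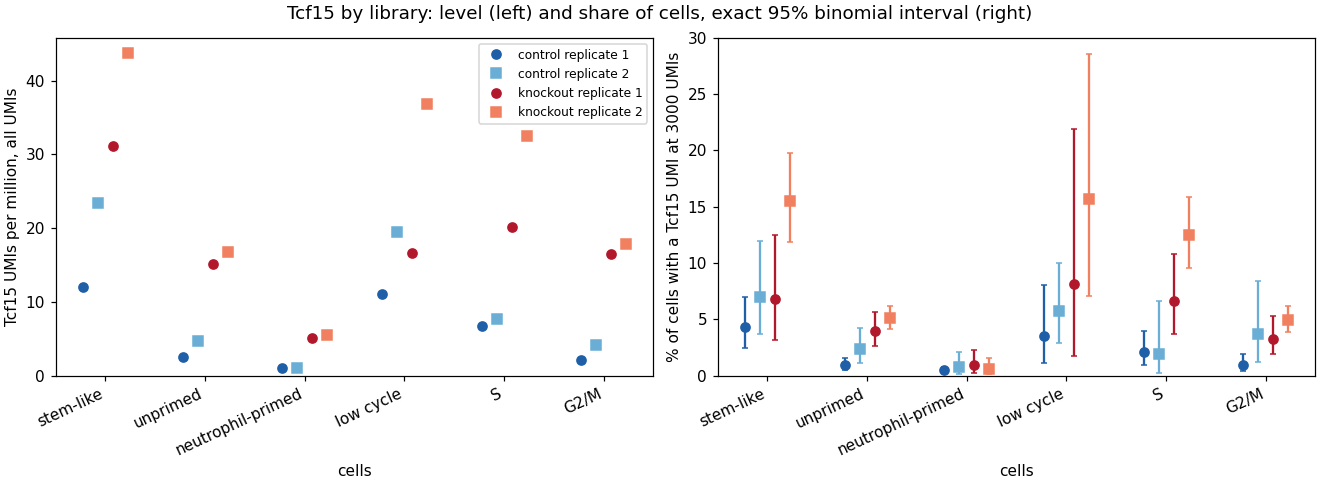
Tcf15 by library: level in CPM (left, linear axis from 0) and share of cells with a Tcf15 UMI at 3000 UMIs with exact 95% binomial intervals (right, percent). The knockout levels (red) lay above the control levels (blue) in stem-like, unprimed, neutrophil-primed, S and G2/M cells, whereas the levels overlapped in low cells and the shares overlapped in stem-like, neutrophil-primed and G2/M cells.

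Tcf15 was also set beside the other 7 genes within single cells at equal depth. Unprimed cells with a Tcf15 UMI held 2.08, 1.70, 1.61 and 1.70 of the other 7 genes, against 1.59, 1.70, 1.44 and 1.46 in cells without one. In stem-like cells the values were 2.20, 2.33, 3.0 and 1.98 against 1.87, 2.18, 2.09 and 1.89. The means were higher in cells with a Tcf15 UMI in 8 of 8 pairs, though only from 1.699 to 1.70 in unprimed cells of control replicate 2, and the cells with a UMI numbered 9 to 90 per library and gate. This was not tested.

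The other 7 members were not called between the genotypes in any gate or state tested. Over all LSK cells their log2 fold changes ran from −0.31 for Nkx2-3 to 0.51 for Hmga2. In unprimed cells Nkx2-3 was just short of the threshold, at 93.7 and 90.8 CPM in the controls and 60.5 and 54.3 CPM in the knockouts without an overlap (−0.67, 95% interval −0.99 to −0.34, adjusted p = 0.055 by edgeR). It was called by DESeq2 (adjusted p = 0.026), without the filter on low counts (0.010 by edgeR) and with the copied barcodes kept (0.049 by edgeR). It was not called with each cell weighted alike. Over all alternatives its log2 fold change lay between −0.73 and −0.59. Mecom was 74.4 and 78.7 CPM against 59.5 and 51.4 CPM in the same cells, also without an overlap (−0.45, adjusted p = 0.14 by edgeR). Without control replicate 1 the log2 fold change was −0.52 for Mecom and −0.87 for Hoxa5. Hmga2 was 14.5 and 27.3 CPM in the controls and 23.8 and 38.5 CPM in the knockouts, which overlap (0.62, adjusted p = 0.31). Its log2 fold change was 1.19 without control replicate 2 and 0.93 without knockout replicate 1. The control libraries alone were thus about as far apart as the genotypes. Of the 8 genes in unprimed cells 6 had negative log2 fold changes.

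In stem-like cells Meis1 (308 and 269 against 234 and 212 CPM), Mecom (103 and 158 against 94.9 and 92.3 CPM) and Nkx2-3 (134 and 141 against 113 and 85.8 CPM) were each lower in both knockouts, with log2 fold changes of −0.39, −0.52 and −0.50 and adjusted p of 0.27, 0.30 and 0.24 by edgeR. Hoxa5 (0.01, 95% interval −0.57 to 0.59) and Hoxa9 (−0.14, −0.60 to 0.32) lay near 0. Control replicate 1 and 2 were apart in Hlf (218 and 377 CPM) and in Hmga2 (16.9 and 32.4 CPM). Without control replicate 1 the log2 fold changes were −0.75 for Hlf, −0.83 for Mecom and −0.60 for Nkx2-3. Without control replicate 2 the value was 1.16 for Hmga2. These fits hold 1 control library, so that they cannot measure the spread between controls.

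**Figure D5:**
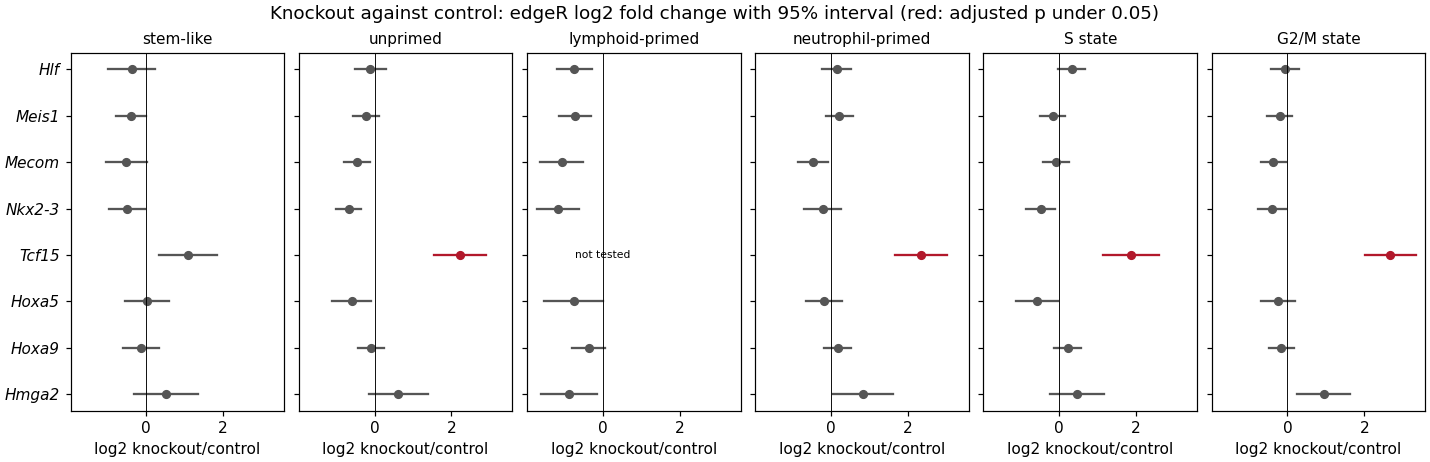
Log2 fold change of each gene between knockout and control libraries, with its 95% interval from edgeR, in 4 gates and 2 cycling states (n = 2 libraries per genotype). Tcf15 passed the adjusted threshold (red) in unprimed, neutrophil-primed, S and G2/M cells, and the 7 members tested in lymphoid-primed cells all lay below 0.

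In lymphoid-primed cells, a comparison added after seeing the data, all 7 members that could be tested had negative log2 fold changes, with a median of −0.76 against −0.01 over all genes. None was called by edgeR or by DESeq2, and 0.86% of 8716 genes were called, 0.207% higher and 0.654% lower. An unadjusted p under 0.05 by edgeR was found for 5 of the 7 members and for 1380 of the 8716 genes. Nkx2-3 was 78.9 and 69.1 CPM in the controls and 43.2 and 27.0 CPM in the knockouts (−1.16, 95% interval −1.72 to −0.61, adjusted p = 0.055). Mecom was 44.2 and 57.6 CPM against 23.1 and 26.5 CPM (−1.07, adjusted p = 0.079), and Meis1 was 192 and 143 CPM against 109 and 96.3 CPM (−0.72, adjusted p = 0.10). Hlf was 125 and 86.1 CPM against 63.2 and 62.9 CPM (−0.74, adjusted p = 0.12), and Hoxa9 was 123 and 135 CPM against 110.4 and 95.5 CPM (−0.37, adjusted p = 0.38). None of these 5 overlapped between the genotypes, nor did Hoxa5 (16.8 and 17.0 CPM against 10.0 and 10.3 CPM), whereas Hmga2 did (30.5 and 57.6 CPM against 17.1 and 30.8 CPM; −0.88). With any 1 library left out the log2 fold changes lay from −1.46 to −0.77 for Nkx2-3 and from −1.25 to −0.75 for Mecom. They lay from −1.42 to −0.18 for Hmga2 and from −0.86 to −0.56 for Meis1. Of the gate's own genes 3 could be tested and none passed, Dntt (−0.04), Il7r (0.02) and Rag2 (1.13, 95% interval 0.26 to 1.99, adjusted p = 0.19). The knockout libraries held 51 and 146 lymphoid-primed cells.

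In low cells 6 of the 8 genes could be tested and none was called by edgeR or by DESeq2 (1.52% of all genes called, 0.916% higher and 0.605% lower). Hoxa9 had an unadjusted p of 0.040 by edgeR (130.3 and 102 CPM in the controls against 83.0 and 68.1 CPM in the knockouts, log2 fold change −0.65, adjusted p = 0.43). Of 6113 genes tested, 666 had an unadjusted p under 0.05. In the same cells the B-cell gene Cd79a was called higher in the knockouts (6.24, adjusted p = 0.00014 by edgeR). Cd79b of the same list was not called (0.57, adjusted p = 0.58 by edgeR). The lymphoid gate gene Dntt was called lower (−2.12, adjusted p = 0.0083 by edgeR). Low cells may thus differ in make-up between the genotypes, and the part of this in the Hoxa9 value was not tested. In G2/M cells Hmga2 was 14.4 and 21.6 CPM in the controls and 24.1 and 39.4 CPM in the knockouts, which did not overlap (0.94, 95% interval 0.26 to 1.63, adjusted p = 0.12 by edgeR). It was called with each cell weighted alike (1.41, adjusted p = 0.020 by edgeR). Without control replicate 2 its log2 fold change was 1.24.

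Of the related genes, few differed between the genotypes. None of 18 tested HOX and TALE genes, 11 relatives and 17 network genes was called over all LSK cells, nor was any in stem-like or unprimed cells. Of the HOX and TALE genes 1 of 11 was lower in S and 1 of 14 in G2/M cells of the knockouts. Gata2 was higher in neutrophil-primed knockout cells (log2 fold change 0.67, adjusted p = 0.0499 by edgeR) and Ikzf2, a zinc-finger factor of the Ikaros family, was lower in lymphoid-primed ones (−1.21, adjusted p = 0.049). The median log2 fold change of the network genes was −0.18 in stem-like and −0.06 in unprimed cells.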

How the data were processed

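LSK cells of 4 libraries were profiled with 10x Genomics 3′ kits. The authors aligned reads to mm10, which has the coordinates of GRCm38, and deposited whole-number UMI counts without normalization (Cell Ranger 3.1, per the submitters' processing notes). From these counts, copied barcodes and 265 more with under 200 genes or over 10% mitochondrial UMIs were left out, and 12513 of the 14041 kept cells, those with at least 3000 UMIs, entered gates (Python 3.11.15, numpy 2.4.6). UMIs were summed per library and tested over the whole gene table with edgeR 4.0.16 (R 4.3.3; filterByExpr, TMM, quasi-likelihood, Benjamini-Hochberg at 0.05), with library as a block between gates and states. S needed at least 5 UMIs of its list and G2/M at least 3, and low allowed at most 1 S and 0 G2/M UMIs. DESeq2 1.42.0, RLE scaling, no filter, other gate limits, thinning to 2000 UMIs and each library left out were alternatives. Leaving out 1 library leaves 1 library of its genotype, so that genotype comparisons without it are given by effect size only. The fits were tested on simulated data. The members and lists were chosen with earlier results of these data known. Named genes are the 8 members, Ranbp2, the 3 called genes per list and direction with the largest change and the 5 genes most like the sum. Kit, Ly6a and the gate genes given between genotypes were named after their values were seen. Deviations of libraries with the same replicate number correlated at −0.12 to −0.01 across genes and no label pairs them, so that the numbers were not used as pairs. The genotype p-values measure the spread between pooled libraries, for which edgeR also draws on other genes. Those between gates and states measure the spread of the difference within libraries. Exact binomial intervals (95%) cover counting error only. Some genes of the lists are not reported here.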

Additional observations from a re-analysis of the deposited data

How the results depend on the processing

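Of 583 recomputed values of members called in the report, 528 kept direction and call, 55 lost the call and 0 changed direction. Of 1076 values not called, 949 stayed so in the same direction, 60 became called and 67 changed direction. These values include genotype fits with 1 library in a genotype, whose calls cannot measure the spread within that genotype. The cause of a change was not tested. The share of all genes called in each alternative is not given, so that the counts below show only how the calls moved. Counts of called members between the genotypes moved as follows. Over all LSK cells (1 called) there were 0 with copied barcodes kept and 0 with thinned UMIs summed, the latter chosen after seeing the data, as were the crossed block, the limit of 10 neutrophil UMIs and all alternatives in S, G2/M and lymphoid-primed cells. In stem-like cells (0) there were 1 without a filter, 2 at 2000 UMIs and 1 with the replicate block. In unprimed cells (1) there were 2 with copied barcodes kept, 0 with thinned UMIs summed, 2 by DESeq2, 3 without a filter and 2 with the crossed replicate block. In neutrophil-primed cells (1) there were 0 with thinned UMIs summed or with 10 neutrophil UMIs, where Tcf15 was not tested, 2 without a filter and 2 with the replicate block. In G2/M cells (1) there were 2 with thinned UMIs summed, without a filter or with the replicate block. In lymphoid-primed cells (0) there were 2 without a filter, 3 at 2000 UMIs, 1 with 2 lineage UMIs, 2 with 10 neutrophil UMIs, 2 with the replicate block and 4 with the crossed block. From low to S (5) there were 3 with thinned UMIs summed, without a filter or in unprimed cells alone. The block used replicate numbers that do not pair the libraries. With it Hmga2 was called in neutrophil-primed (0.74, adjusted p = 0.041 by edgeR) and G2/M cells (0.83, adjusted p = 0.013), and Mecom (adjusted p = 0.028) and Nkx2-3 (adjusted p = 0.0065) in lymphoid-primed cells.

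Leaving out 1 library gave 2 to 4 called members for stem-like against unprimed and 3 to 5 for S against low cells. The share of all genes called is not given beside these counts. In the genotype comparisons leaving out 1 library leaves 1 library in a genotype, so that only log2 fold changes are given. Log2 fold changes that crossed 0 this way, none of them called in the report, ranged as follows. Between the genotypes, Hlf ranged from −0.11 to 0.39 over all LSK cells, −0.75 to 0.15 in stem-like, −0.26 to 0.075 in unprimed, −0.022 to 0.31 in neutrophil-primed, −0.20 to 0.35 in low and −0.20 to 0.094 in G2/M cells. Hoxa9 ranged from −0.090 to 0.13 over all, −0.31 to 0.064 in stem-like and −0.16 to 0.0095 in unprimed cells, Hoxa5 from −0.54 to 0.076 over all and −0.14 to 0.18 in stem-like cells, and Mecom from −0.48 to 0.011 over all cells. Hmga2 ranged from −0.031 to 1.16 in stem-like and −0.069 to 1.06 in S cells, and Nkx2-3 from −0.41 to 0.064 in neutrophil-primed and −0.84 to 0.11 in low cells. The genotype difference between gates ranged from −0.42 to 0.11 for Hlf, −0.10 to 0.086 for Hoxa9 and −0.21 to 0.32 for Mecom. Hoxa9 ranged from −0.082 to 0.0019 in stem-like against unprimed, −0.12 to 0.094 in G2/M and −0.17 to 0.16 in S against low cells, and Hmga2 from −0.64 to 0.15 in stem-like against lymphoid-primed, −0.33 to 0.57 in G2/M and −0.13 to 0.59 in S against low cells.

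Other alternatives turned values that were not called. With thinned UMIs summed, the genotype values became −0.029 for Meis1, −0.026 for Hlf and −0.0078 for Hoxa9 over all cells, 0.24 for Hoxa9 in stem-like cells, −0.12 for Meis1, −0.26 for Hlf and 0.047 for Hoxa5 in neutrophil-primed cells, 0.14 for Mecom in S and 0.068 for Hoxa5 in G2/M cells, and the difference between gates became 0.16 for Hlf, −0.13 for Mecom, 0.42 for Hoxa9 and 0.12 for Hmga2. Hoxa9 then stood at 0.0089 in stem-like against unprimed and Hmga2 at −0.020 in S against low cells. At 2000 UMIs, Hoxa5 was −0.45 in stem-like and Hlf −0.56 in low cells between the genotypes, the difference between gates was 0.017 for Meis1, 0.085 for Hoxa9 and −0.059 for Nkx2-3, and Hmga2 was −0.090 in S against low cells. Hoxa5 in stem-like cells was −0.11 without the condition on Cd48 and Flt3 and −0.13 with 2 lineage UMIs, which gave 0.043 in G2/M cells. Without that condition the difference between gates was −0.0011 for Mecom and −0.016 for Nkx2-3. With 3 stem genes it was 0.13 for Hlf and 0.011 for Hoxa9, and Hoxa9 was 0.13 in stem-like against unprimed. With 10 neutrophil UMIs the difference for Hmga2 was 0.12 and Hoxa9 was 0.029 in stem-like against unprimed. Hmga2 in G2/M against low cells was 0.058 by DESeq2 and 0.094 without a filter, where Hoxa9 was 0.054 in G2/M and 0.039 in S against low cells. The planned comparison with megakaryocyte-primed cells could not be fitted in 4 libraries, because control replicate 2 held 8 such cells.

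The 2 libraries per genotype limit every genotype comparison. Tcf15 rests on 80 to 817 UMIs per library, and differences in erythroid-primed, megakaryocyte-primed and low cells rest on as few as 21, 15 and 37 cells.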
